A study of Glycine max with 23 samples.

Results

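Cytochrome P450 genes with a systematic CYP name were followed across the compartments of the young soybean (Glycine max) seed. The set held every gene with a soybean probe set of its own whose symbol joins CYP, a family number, a subfamily letter and a member number, apart from CYP98A2, CYP93E1 and CYP72A67. It counted 19 genes of the 6031 that had a probe set of their own, and all 19 had an entry in RefSeq's Glycine_max_v4.0 table under their gene ID. Their 28 probe sets left 6 genes with several, and each gene was read from its brightest one, the probe set with the highest mean log2 signal over the groups. Another 12 symbols consist of CYP and a number alone. In soybean these name cyclophilins, which are protein-folding enzymes, and they were left out.

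Transcripts were measured on 23 Affymetrix Soybean Genome arrays, a 1-colour short-oligonucleotide array, in 10 groups. All plants were of the cultivar Asgrow A3237, with no mutation or treatment, in days of 16 h light and 8 h dark at 22 °C. Laser capture from 8 µm sections of fixed, paraffin-embedded seeds, taken at the heart stage of the embryo from pods of 1.3 to 2.0 cm, gave 5 seed coat regions with 2 arrays each (the endothelium, the epidermis, the hilum and the inner and outer integument) and the endosperm, the embryo proper and the suspensor (3 arrays each). Endosperm replicate 3 was captured with another microscope model. Ground whole seeds had 2 arrays, as did ground leaves, which were 1.5 to 2.5 cm long. The suspensor is the stalk that ties the embryo proper to the maternal tissue, and the endosperm is the nourishing tissue around both. The replicates are called biological and are not tied to single plants, so p-values measure the spread between these samples only.

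Cytochrome P450s are haem enzymes that mostly insert an oxygen atom into a small molecule, with electrons passed on by a reductase in the endoplasmic reticulum. Plants hold very many of them, and the family number groups enzymes by sequence, often with a shared kind of substrate. In plant tissues they build carotenoids, brassinosteroid hormones, cutin, phenolic compounds and defence compounds.

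Signals are the deposited linear intensities, and the background of each array was the 95th percentile of its probe sets for soybean pathogens. It lay between 86.3 and 231.4 apart from suspensor replicate 1 (420.1) and endosperm replicate 1 (404.9), the arrays with the fewest soybean probe sets above background (13378 and 14751, against up to 23564). Arrays of 1 group correlated at a median of 0.92. Lists of marker genes, several of which come from earlier results of these data and so give no independent check, had their highest sum in the tissue they were listed for. The 9 seed coat markers summed to between 69039.1 and 157617.5 signal units over the group means of the coat regions, against 1718.1 in endosperm, 1039.1 in embryo proper and 7980.0 in suspensor. The 3 suspensor markers summed to 112522.0 in suspensor and to between 88.0 and 1105.7 elsewhere, and the 4 embryo markers to 23971.7 in embryo proper, 12900.0 in suspensor and 6246.4 in endosperm. Of the embryo markers, H1 and PHANa had their highest mean in embryo proper. LEC1-A had its highest in suspensor (11474.9, against 4937.0 in embryo proper) and WRI1B in endosperm (1914.0, against 1460.1 in embryo proper). The seed coat markers also summed to 90347.7 in the leaf, where 4 of the 9 were above background on both arrays, and the 6 leaf markers to 117737.5 in the leaf and 85244.3 in embryo proper, so neither list belongs to its tissue alone. No marker was fixed for the endosperm.

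Most of these P450 genes were detected in few compartments. For 14 of the 19 genes some group had all its arrays above background, and these 14 were tested. The leaf had 11 genes above background throughout, the outer integument 7, the whole seed 6, the epidermis, hilum and embryo proper 5 each, the endothelium, inner integument and suspensor 4 each, and the endosperm 2. Of all soybean probe sets, 58.1% were above background throughout in the leaf, whose arrays had the lowest background (86.3 and 93.1), against 31% in suspensor and 34.2% in endosperm. The leaf's 11 genes were 57.9% of the 19, level with that share. The share of all was 55.7% in whole seed, 48.4% in hilum, 47.1% in outer integument and 44.7% in epidermis. It was 44.2% in embryo proper, 43.2% in endothelium and 38.2% in inner integument. CYP97B2 alone was above background on all 23 arrays. CYP71D10, CYP83E8 and CYP94D24 were above background throughout in the leaf and in no other group, as were 4.35% of all soybean probe sets. The leaf mean of CYP94D24, 112.5 signal units, lay below its inner integument mean of 157.3, where 1 of 2 arrays was above background. The 5 genes that were so in no group were CYP71A9, CYP81E11, CYP82A2, CYP93A1 and CYP93A2, and CYP71A9 was above background on no array. Among the 14, the highest of the 10 group means was the leaf's for 6 genes, the inner integument's, the outer integument's and the suspensor's for 2 each, and the endosperm's and the hilum's for 1 each. The share of all tested probe sets with their highest mean in each group was not counted.

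**Figure D1:**
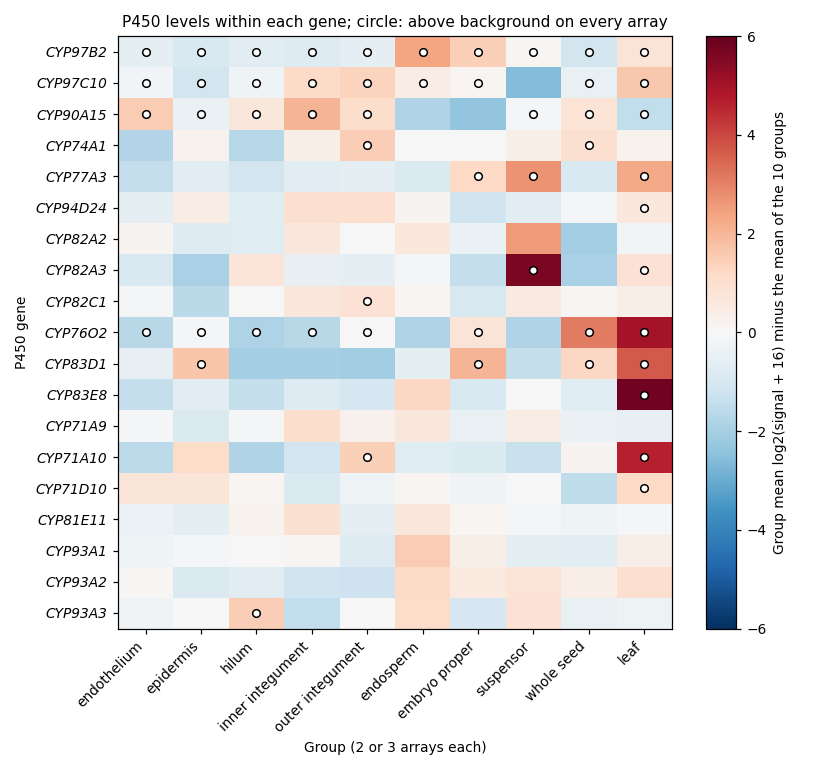
Group means of log2(signal + 16) for the 19 P450 genes (down) in the 10 groups (across), each as the difference from that gene's own mean over the 10 groups, with a white circle where every array of the group was above background. CYP97B2 has a circle in all 10 groups, and the leaf has the most circles (11 genes). CYP82A3 stands out in the suspensor and CYP83E8 in the leaf.

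Between the 8 captured compartments, levels differed for 11 of the 14 tested genes by limma's F test (adjusted p under 0.05 and at least 2-fold between the highest and lowest compartment). Over all tested probe sets the share was 52.6%. Of the 11 genes, CYP83E8 was above background throughout in no captured compartment. CYP71A10, CYP74A1, CYP82A3 and CYP93A3 were so in 1 each. Part of the variation of these genes thus lay below background. CYP90A15 (adjusted p = 1.9e-09), CYP82A3 (1.2e-06) and CYP77A3 (9.9e-06) had the smallest p-values, and CYP71D10, CYP82C1 and CYP94D24 did not pass. In a bulk sample, fewer cells of a type and less RNA per cell cannot be told apart, which holds for each difference below.

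In embryo proper against suspensor, 8 of the 14 tested genes were called (adjusted p under 0.05 and at least 2-fold), against 23.1% of all tested probe sets. CYP76O2, CYP83D1, CYP97B2 and CYP97C10 were higher in the embryo proper, where 12.7% of all tested were, and CYP77A3, CYP82A3, CYP90A15 and CYP93A3 were lower, where 10.4% were. For CYP93A3 no array of either group was above background. The 14 tested genes had a median log2 difference of -0.46, and all tested probe sets 0.07. The count was 5 without embryo proper replicate 1 and 5 without suspensor replicate 3.

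The endosperm differed from the mean of embryo proper and suspensor in 6 of the 14 tested genes, against 19.2% of all tested probe sets. CYP83E8, CYP97B2 and CYP97C10 were higher in endosperm (8.9% of all tested) and CYP76O2, CYP77A3 and CYP82A3 lower (10.3%), with medians of 0.28 for the 14 genes and 0.16 for all. Between the 5 seed coat regions together and the embryo and endosperm, 5 of the 14 were called, against 21.5% of all tested. CYP90A15 was higher in the coat (12.1% of all tested), while CYP77A3, CYP82A3, CYP83E8 and CYP97B2 were lower (9.4%), with medians of -0.23 and -0.03.

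The whole seed differed from the leaf in 9 of the 14 tested genes, against 13.2% of all tested probe sets. CYP90A15 was higher in the whole seed (5.15% of all tested were higher) and 8 genes were lower (8.03%), and the median log2 difference was -1.97 over the 14 tested genes and 0.12 over all tested. The 8 were CYP71A10, CYP76O2, CYP77A3, CYP82A3, CYP83D1, CYP83E8, CYP97B2 and CYP97C10. The count was 4 without whole seed replicate 1, without whole seed replicate 2, without leaf replicate 1 and without leaf replicate 2. With 1 array left in an arm, that lone array is assumed to vary like the other groups. No test was made of the called shares against those of all probe sets. The detection filter favours a difference for a gene that passed it through 1 bright group alone, as CYP83E8 did through the leaf. CYP71D10 and CYP94D24 also passed through the leaf alone and were not called.

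**Figure D2:**
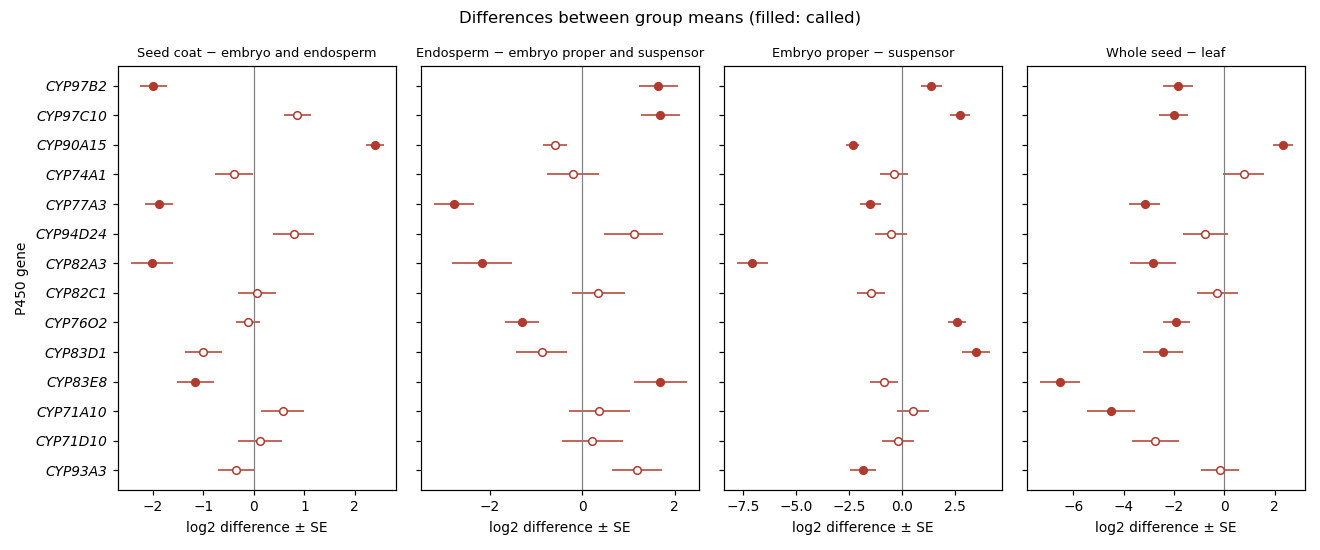
Log2 differences with standard errors from the limma fit for the 14 tested P450 genes (down) in 4 comparisons, filled where called. Most filled points for whole seed against leaf lie left of 0 (8 of 9), and the widest difference between embryo proper and suspensor is that of CYP82A3 at -7.06.

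The CYP97 genes were above background throughout in the most groups, CYP97B2 in all 10 and CYP97C10 in 9. CYP97 enzymes work in the plastid, and in Arabidopsis CYP97C1 (LUT1) hydroxylates the ring of alpha-carotene on the way to lutein; the step that CYP97B enzymes catalyse is less settled. CYP97C10 (NCBI gene 100780770) had 1412.4 and 1737.0 signal units in endothelium, 658.5 and 980.7 in epidermis, 1337.1 and 1587.0 in hilum, 4471.9 and 3441.8 in inner integument and 4146.3 and 4737.9 in outer integument. The inner and outer integument were the brightest coat regions and the epidermis the dimmest. Its signals were 2940.5, 2562.5 and 1872.0 in endosperm and 2208.3, 2485.4 and 1298.0 in embryo proper, against 76.6 (below background), 726.2 and 352.6 in suspensor. Every embryo proper array was brighter than every suspensor array. Whole seeds had 1413.4 and 1217.6, and leaves 5203.6 and 5565.0.

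CYP97C10 was 6.61-fold higher in embryo proper than in suspensor (log2 2.72 ± 0.48 SE, limma adjusted p = 2e-04, n = 3 each), and 3.94-fold higher with the suspensor array below background set to that background. Leaving out suspensor replicate 1 moved the log2 difference to 1.89, and leaving out suspensor replicate 2 moved it to 3.39; the call held in both. The gene was 3.22-fold higher in endosperm than in embryo proper and suspensor together (1.69 ± 0.42 SE, adjusted p = 0.005), although the endosperm and embryo proper arrays overlap. Within the coat, the epidermis was 3.08-fold lower than the other 4 regions (log2 -1.62 ± 0.46 SE, adjusted p = 0.031). That call ended, with an adjusted p of up to 0.36, without epidermis replicate 1 or 2, hilum replicate 2 or outer integument replicate 2, and with equal array medians (0.073), quantile normalization (0.059) or no variance trend (0.061). The outer integument was 2.69-fold and the inner integument 2.31-fold above the other 4 regions, which did not pass (adjusted p = 0.071 and 0.072). The whole coat differed from embryo and endosperm by less than 2-fold (log2 0.86, adjusted p = 0.017). For whole seed against leaf it was 4.06-fold lower (adjusted p = 0.024), a call that ended without any 1 of the 4 whole seed and leaf arrays (adjusted p up to 0.15).

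CYP97B2 (NCBI gene 606504) was brightest in the endosperm, with 1924.6, 4889.5 and 7425.3 signal units. It had 2078.5, 2042.0 and 2187.5 in embryo proper and 450.8, 1606.9 and 704.2 in suspensor. The embryo proper arrays were close to each other and above all suspensor arrays, while the endosperm arrays spread widely and overlapped the embryo proper. Over the 10 coat arrays the signal ran from 262.2 to 695.2, and the contrast of each coat region with the other 4 did not pass (adjusted p of 0.82 or more). Whole seeds had 366.4 and 340.2 and leaves 1774.5 and 973.8.

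The coat was 3.97-fold below embryo and endosperm for CYP97B2 (log2 -1.99 ± 0.27 SE, limma adjusted p = 6.2e-06, 10 against 9 arrays), and this call held in every alternative run. The endosperm was 3.15-fold above embryo proper and suspensor (log2 1.65 ± 0.42 SE, adjusted p = 0.0067), a call that ended without endosperm replicate 3 (log2 1.23, adjusted p = 0.07). That array was captured with another microscope model, whose part in this and the other endosperm differences was not tested. The embryo proper was 2.59-fold above the suspensor (log2 1.37 ± 0.49 SE, adjusted p = 0.043). Leaving out any embryo proper array, suspensor replicate 1 or 3, endosperm replicate 2, or any outer integument or whole seed array ended that call (adjusted p up to 0.18), as did 5 other settings, with the captured arrays alone giving 0.054. The whole seed was 3.61-fold below the leaf (log2 -1.85, adjusted p = 0.043). That call ended without any array of the embryo proper, outer integument, whole seed or leaf, without endosperm replicate 2 and without hilum replicate 2 (adjusted p up to 0.32), and under 4 other settings, with no filter giving 0.054.

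**Figure D3:**
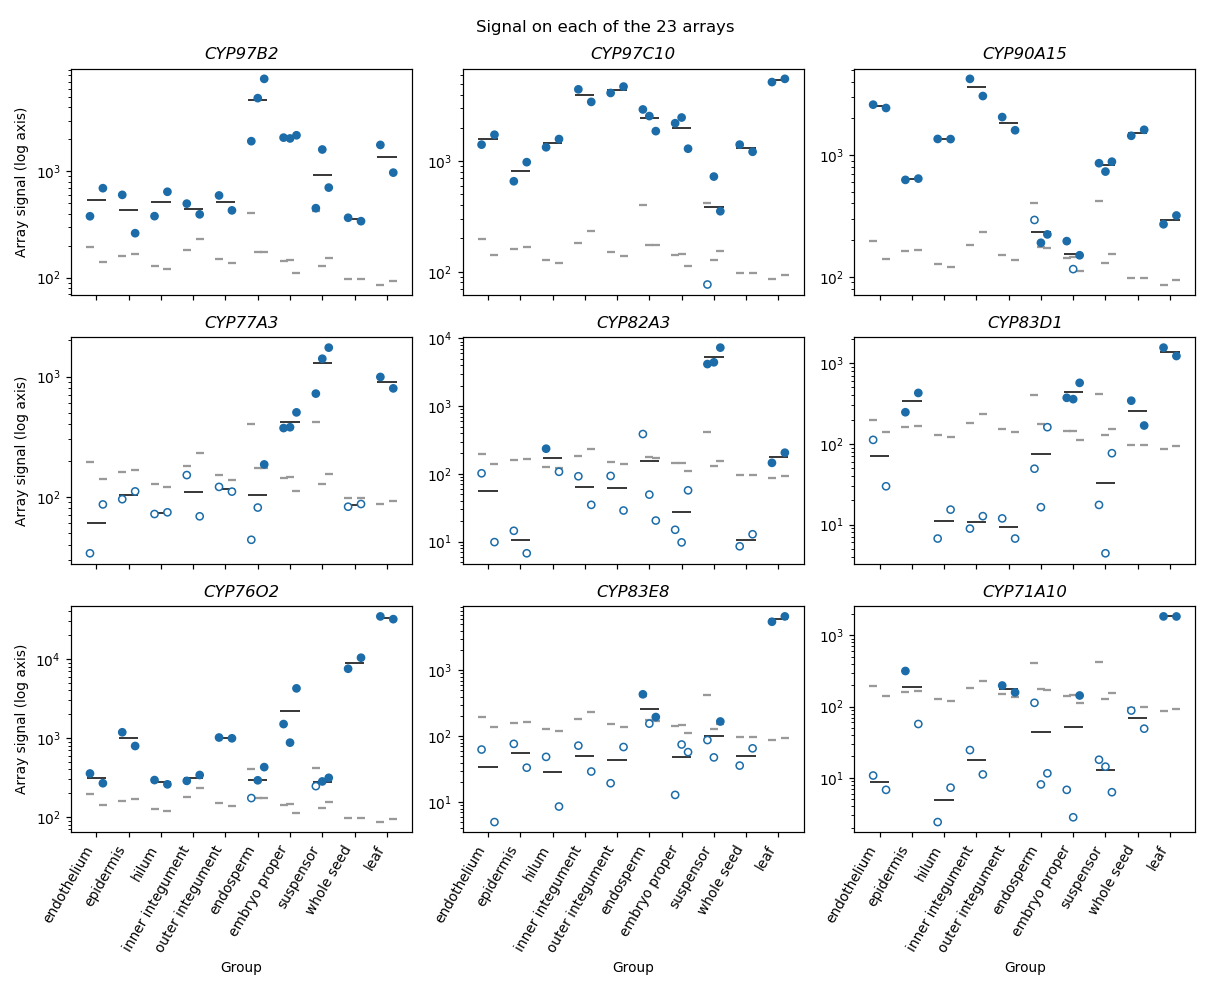
Signal on each of the 23 arrays (log axis) by group for 9 P450 genes; points are arrays, filled where above background, black lines are group means and grey dashes the background of each array. CYP90A15 is higher in all coat regions than in endosperm and embryo proper, CYP82A3 is high in the suspensor, and CYP83E8 and CYP71A10 are high in the leaf.

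CYP90A15 was higher over the seed coat regions together than in embryo and endosperm, though not in every coat region against the suspensor. In Arabidopsis, CYP90A1 (CPD) is an enzyme of brassinosteroid synthesis, and plants without it are dwarfed. CYP90A15 (NCBI gene 100795125) had 2598.6 and 2439.3 signal units in endothelium, 625.5 and 640.9 in epidermis, 1357.7 and 1354.5 in hilum, 4236.0 and 3059.2 in inner integument, and 2054.5 and 1600.8 in outer integument. Its signals were 292.9 (below background), 190.1 and 222.8 in endosperm, 196.2, 115.5 (below background) and 150.1 in embryo proper, and 857.6, 732.0 and 882.8 in suspensor. The epidermis lay below the suspensor, and the other 4 coat regions lay above every array of embryo and endosperm. Whole seeds had 1441.4 and 1614.9, against 269.9 and 318.7 in leaves.

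CYP90A15 was 5.27-fold higher in the coat than in embryo and endosperm (log2 2.40 ± 0.17 SE, limma adjusted p = 4.6e-10, 10 against 9 arrays). The inner integument was 2.54-fold above the other 4 coat regions (log2 1.34 ± 0.30 SE, adjusted p = 0.0022), a call that ended without inner integument replicate 1 (adjusted p = 0.054), and the epidermis was 3.37-fold below them (log2 -1.75 ± 0.30 SE, adjusted p = 0.00047). The inner integument and the next region, the endothelium, differed by 0.51 on the log2 scale (adjusted p = 0.48), so their order is not settled. The embryo proper was 5.02-fold lower than the suspensor (log2 -2.33 ± 0.31 SE, adjusted p = 6.9e-06), and the whole seed was 4.98-fold higher than the leaf (log2 2.32 ± 0.38 SE, adjusted p = 0.00018). The 9 seed coat markers also differed between embryo proper and suspensor, with summed signals of 1039.1 and 7980.0, and 2 and 3 of the 9 above background on every array; their part in the CYP90A15 difference was not tested.

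CYP77A3 was above background throughout in embryo proper, suspensor and leaf. CYP77A enzymes of Arabidopsis hydroxylate or epoxidise fatty acids, some of them for cutin, the polyester of the plant surface, and CYP94 enzymes hydroxylate fatty acids at the chain end. CYP77A3 (NCBI gene 100795510) had 373.1, 379.0 and 503.7 signal units in embryo proper, against 721.8, 1408.0 and 1741.1 in suspensor. The ranges did not overlap. In endosperm it had 43.9, 81.4 and 185.9, of which the last was above background, and over the 10 coat arrays between 33.9 and 151.6, none above background. Whole seeds had 82.7 and 87.1 (below background), against 992.8 and 797.8 in leaves.

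The coat was at least 2.19-fold below embryo and endosperm for CYP77A3 (log2 -1.88 ± 0.28 SE, limma adjusted p = 1.8e-05). "At least" marks a fold that puts each dimmer array at its background level (or its own signal where that is higher), because none of them was above background. The endosperm was 6.88-fold below embryo proper and suspensor (log2 -2.78 ± 0.44 SE, adjusted p = 5.8e-05), with 1 of 3 endosperm arrays above background, and 2.87-fold below with the other 2 set to their background. The embryo proper was 2.85-fold below the suspensor (log2 -1.51 ± 0.50 SE, adjusted p = 0.031), a call that ended without embryo proper replicate 1 or 2 or suspensor replicate 2 or 3 (adjusted p up to 0.11), with an offset of 1 (0.056), without the detection filter (0.051) and with equal array medians (0.094). The whole seed was at least 7.99-fold below the leaf (log2 -3.17 ± 0.62 SE, adjusted p = 0.001). The second probe set of CYP77A3 was above background on 1 array and was not tested; averaging both probe sets moved the log2 difference for the endosperm to -1.16 (adjusted p = 0.036) and that for whole seed against leaf to -1.63 (adjusted p = 0.054).

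CYP94D24 was dim throughout. It was above background on both leaf arrays (106.0 and 119.0), reached 191.4 in epidermis, 225.9 in inner integument and 169.9 in outer integument on 1 array each, and was called in no comparison. CYP74A1, in Arabidopsis the allene oxide synthase of jasmonate synthesis, an atypical P450 that rearranges a fatty acid hydroperoxide with no oxygen or reductase, was also dim. Its signals were 284.9 and 145.8 in outer integument, against at most 145.6 in the other 4 coat regions (median 24.0 over 8 arrays), where no array was above background. Whole seeds had 105.1 and 184.8 and leaves 89.9 and 62.8. The lower outer integument array and the highest array of the other regions were nearly level.

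Each coat region was set against the other 4, and between 0 and 3 of the 14 tested genes were called. For the outer integument the count was 1 of 14 (7.01% of all tested probe sets; 4.08% higher and 2.93% lower), namely CYP74A1, higher by at least 1.24-fold (log2 2.19 ± 0.64 SE, limma adjusted p = 0.038). That call ended without endothelium replicate 1, epidermis replicate 2, inner integument replicate 1 or any 1 array of the hilum, outer integument, whole seed or leaf (adjusted p up to 0.49). The count fell to 0 in those cases and was 2 or 3 without embryo proper replicate 2 or 3, suspensor replicate 1 or 2, endosperm replicate 1 or epidermis replicate 1. Without the detection filter the adjusted p was 0.058, and with the captured arrays alone 0.062.

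The hilum also had 1 called gene of 14 (9.09% of all tested; 4.32% higher and 4.77% lower), CYP93A3. The hilum was the only group with this gene above background throughout, so it passed the detection filter through the group where it was high. It had 140.2 and 272.6 signal units in hilum, against 10.7 to 99.8 in the other 4 regions (median 46.3 over 8 arrays), none of them above background. It was higher in hilum by at least 1.15-fold (log2 1.92 ± 0.60 SE, limma adjusted p = 0.047). The call, and with it the count, was lost without embryo proper replicate 2 or 3, endothelium replicate 1, or any 1 array of the epidermis, hilum, inner integument, outer integument, whole seed or leaf (adjusted p up to 0.50). It was also lost with an offset of 1 (0.074), without the detection filter (0.073) and with the captured arrays alone (0.064).

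The inner integument had 2 called genes of 14 (18.8% of all tested), CYP90A15 higher (7.66% of all tested) as above and CYP93A3 lower (11.2%). CYP93A3 had 12.2 and 10.7 signal units there, against 20.3 to 272.6 in the other regions, where 2 of 8 arrays, both of the hilum, were above background (log2 -1.77 ± 0.60 SE, limma adjusted p = 0.041). The gene passed the detection filter through the hilum alone, which is 1 of those regions, so the p-value gives no independent support. With the inner integument arrays set to their background the other regions were no longer higher, so no fold is given. Replicate 2 of endothelium, epidermis, hilum or outer integument, and any 1 array of inner integument or whole seed, ended that call when left out (adjusted p up to 0.22). The count was 1 in those cases and 0 without inner integument replicate 1. An offset of 64 (adjusted p = 0.084), no filter (0.063), array weights (0.16) and the captured arrays alone (0.054) ended it too. CYP93A3 was also called lower in embryo proper (7.1, 34.6 and 28.9) than in suspensor (212.6, 69.9 and 109.3), at log2 -1.85 ± 0.62 SE and adjusted p = 0.033, but no array of either group was above background, so no fold is given. That call ended without embryo proper replicate 1 or 3 or suspensor replicate 1 or 3 (adjusted p up to 0.14), with array weights (0.11) and without the arrays of highest background (0.08).

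The endothelium had 0 called genes of 14 by limma (6.53% of all tested probe sets; 3.55% higher and 2.98% lower), and 2 of the 14 tested had an unadjusted p under 0.05. The epidermis had 3 of 14 (7.88% of all tested), CYP83D1 higher (4.11%) and CYP90A15 and CYP97C10 lower (3.77%); the count was 1 without epidermis replicate 2.

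CYP82A3 had the highest contrast of the set, 7.62 on the log2 scale between the highest and lowest captured compartment, and its highest signal was in the suspensor. The CYP82 family is wide in plants, and CYP82A3 has been tied to responses to pathogens in soybean. CYP82A3 (NCBI gene 100789386) had 14.9, 9.7 and 57.0 signal units in embryo proper, none above background, against 4183.0, 4442.0 and 7316.5 in suspensor. Over the 16 arrays of the other 7 captured compartments the signal ran from 6.7 to 386.9 with a median of 42.0, and 1 array, of the hilum (235.1), was above background. Endosperm arrays had 386.9, 49.3 and 20.4, whole seeds 8.5 and 12.8, and leaves 145.3 and 205.1. Every suspensor array thus lay above all 20 arrays of the other groups.

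The embryo proper was at least 34.7-fold below the suspensor for CYP82A3 (log2 -7.06 ± 0.75 SE, limma adjusted p = 5.2e-07, n = 3 each). Under the rule for specific genes, a lead of at least 4-fold over every one of the 7 remaining captured compartments, CYP82A3 was the only gene of the 14 tested. The fitted margin over the next compartment, the hilum (1 of 2 arrays above background), was 29.3-fold (adjusted p = 0.00018), and with arrays of the other compartments set to their background where below it the lead was 20.8-fold, over the endosperm. Over all tested probe sets 3.68% were specific to a compartment and 1.34% to the suspensor. The count was 2 without suspensor replicate 1, when CYP82A2 passed the filter through the suspensor alone and met the rule (adjusted p = 0.024). No array of the other compartments was above background for it, and set to that background they left a lead of at least 2.56-fold, which is under the 4-fold of the rule. The coat was lower than embryo and endosperm (log2 -2.02 ± 0.42 SE, adjusted p = 7e-04), by 1.46-fold with the 9 of 10 coat arrays below background set to it, and the endosperm at least 1.81-fold below embryo proper and suspensor (log2 -2.18 ± 0.65 SE, adjusted p = 0.019), both means that hold the suspensor. The endosperm call ended without endosperm replicate 2 or 3 (adjusted p up to 0.16, log2 -1.46 without replicate 3) and with an offset of 1 (0.086), while without endosperm replicate 1 the log2 difference was -3.20. The whole seed was at least 1.66-fold below the leaf (log2 -2.83, adjusted p = 0.045), a call that ended without embryo proper replicate 1 or 2, suspensor replicate 2, or any 1 array of the epidermis, hilum, outer integument, whole seed or leaf (adjusted p up to 0.24), and under 4 other settings, among them the mean of the probe sets (0.32).

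CYP82A3 has 3 other probe sets and its relative CYP82A2 has 3, and they are described after their values were seen. A second probe set of CYP82A3 had 4.2, 45.1 and 1.6 signal units in embryo proper, against 18014.6, 3958.4 and 6194.0 in suspensor, at least 51.4-fold lower in embryo proper (limma adjusted p = 3.1e-07). Another had 35.9, 9.2 and 20.5, against 1181.0, 380.6 and 988.1, at least 5.26-fold lower in embryo proper (adjusted p = 1.5e-05). Both passed the detection filter through the suspensor alone. That filter favours such a difference, so these p-values give no independent support. The fourth was above background on 2 suspensor arrays (510.9 and 321.0, with 86.3 on the other) and on no other array, and was not tested. For CYP82A2 (NCBI gene 100798546) the brightest probe set reached 862.4 and 439.1 above background in suspensor and 344.6 below the high background of replicate 1, so it was not tested with all arrays. Another probe set of CYP82A2 had 12.5, 21.2 and 69.9 in embryo proper, against 718.9, 1219.4 and 1250.7 in suspensor, at least 7.05-fold lower in embryo proper (log2 -4.54 ± 0.72 SE, adjusted p = 5.8e-05), and met the rule for the suspensor (adjusted p = 0.014). It passed the filter through the suspensor alone, and no array of the other compartments was above background, so its lead over them was at least 4.23-fold. The remaining probe set of CYP82A2 was above background on no array, and its highest array was one of the endosperm (212.5, against 25.7, 89.3 and 35.4 in suspensor). For CYP82A2, both probe sets that were high in suspensor carry the suffix that marks probes shared with related transcripts. Its remaining probe set carries none, so suspensor signal above background for CYP82A2 rests on shared probes alone. For CYP82A3, the brightest probe set and that with the 5.26-fold difference carry the suffix. Its probe set with 18014.6, 3958.4 and 6194.0 in suspensor and its untested probe set carry none. Probe specificity was not tested, so signal of CYP82A2 and CYP82A3 cannot be told apart with certainty. CYP82C1, also of this family, was above background throughout in the outer integument alone (154.3 and 140.2), ran from 13.4 to 211.5 over all 23 arrays, and was called in no comparison.

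**Figure D4:**
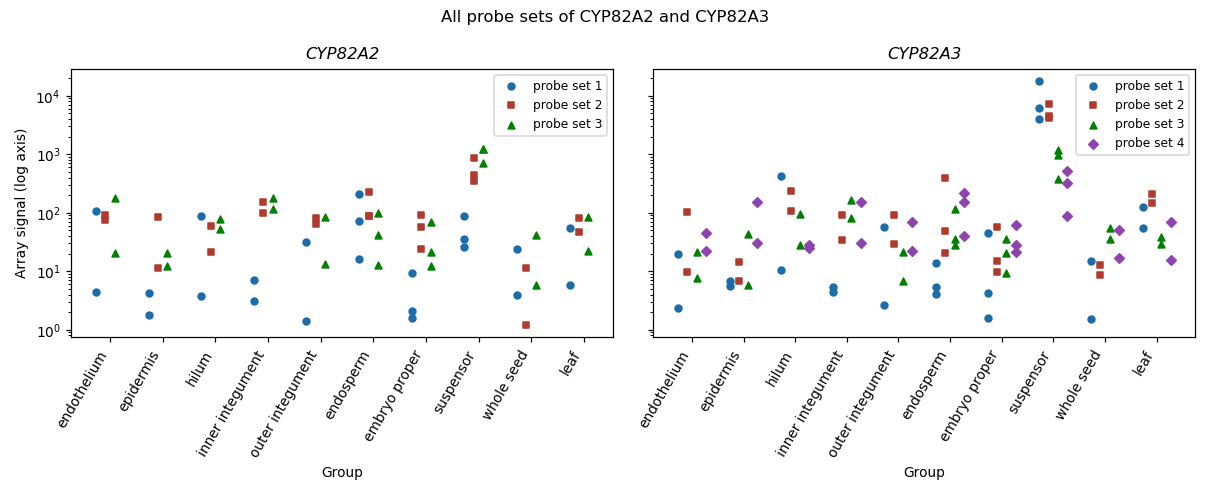
Signal on each array (log axis) by group for all 3 probe sets of CYP82A2 and all 4 of CYP82A3. The highest array is a suspensor array for all 4 CYP82A3 probe sets and for 2 of the 3 CYP82A2 probe sets; probe set 2 is the one the results use for each gene.

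The 5 tested genes of the CYP71, CYP76 and CYP83 families had their highest group mean in the leaf. CYP71D10 and CYP83E8 passed the detection filter through the leaf alone, and no share over all tested probe sets was counted, so this is not a family result. CYP83 enzymes act in Arabidopsis on the way to glucosinolates, which soybean does not make, and the CYP76 family holds a geraniol hydroxylase in Catharanthus. CYP76O2 (NCBI gene 100789835) had 7527.1 and 10382.3 signal units in whole seeds, against 34593.0 and 31927.4 in leaves. In embryo proper it had 1500.7, 873.2 and 4247.9, and in suspensor 245.9 (below background), 281.8 and 313.4. In endosperm it had 173.6 (below background), 291.5 and 428.1. In the coat the epidermis (1181.5 and 791.8) and outer integument (1014.4 and 991.2) were brighter than the endothelium, hilum and inner integument, which ran from 259.2 to 355.5. No region differed from the other 4 by the call rule.

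The embryo proper was 6.07-fold above the suspensor for CYP76O2 (log2 2.60 ± 0.43 SE, limma adjusted p = 1e-04), and without embryo proper replicate 3 the log2 difference was 1.98 (adjusted p = 0.00091). The endosperm was 2.46-fold below embryo proper and suspensor (log2 -1.30 ± 0.37 SE, adjusted p = 0.015), a call that ended without embryo proper replicate 3 or endosperm replicate 1 (adjusted p up to 0.11), without both arrays of highest background (0.082) and with the mean of both probe sets (log2 -0.59, adjusted p = 0.30). Whole seeds were 3.75-fold below leaves (log2 -1.91, adjusted p = 0.017), which ended without any 1 of the 4 whole seed and leaf arrays (adjusted p up to 0.15), while quantile normalization moved the log2 difference to -2.64 and the second probe set gave 26.1-fold (log2 -4.71 ± 0.71 SE, adjusted p = 8.4e-05). The brightest probe set carries the suffix for shared probes, and the second gave no call between embryo proper and suspensor (log2 1.55, adjusted p = 0.055).

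CYP83D1 (NCBI gene 606704) appeared in separate places of the seed. It had 246.8 and 428.0 signal units in epidermis, against 6.7 to 112.1 in the other 4 coat regions (median 12.3 over 8 arrays), none above background. It had 372.6, 358.5 and 570.9 in embryo proper, against 17.5, 4.4 and 76.6 in suspensor, none above background. Neither pair of groups overlapped. Whole seeds had 343.0 and 168.8, and leaves 1560.4 and 1228.0. The epidermis was at least 1.97-fold above the other coat regions (log2 3.32 ± 0.63 SE, limma adjusted p = 0.0013), a call that ended without epidermis replicate 2 (adjusted p = 0.068), and the second probe set was also called there (at least 1.89-fold, adjusted p = 0.031). The embryo proper was at least 1.99-fold above the suspensor (log2 3.47 ± 0.65 SE, adjusted p = 0.00036; 4.07 without suspensor replicate 3), but the second probe set was not called (log2 1.06, adjusted p = 0.35). Whole seeds were 5.44-fold below leaves (log2 -2.44, adjusted p = 0.043). That call ended without any 1 array of the embryo proper, epidermis, hilum, outer integument, whole seed or leaf (adjusted p up to 0.33) and under 4 other settings, with an offset of 1 giving 0.18, and the second probe set was not called there (adjusted p = 0.75).

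CYP83E8 (NCBI gene 100796528) was far brighter in the leaf than in the seed, with 35.9 and 65.6 signal units in whole seeds, both below background, against 5454.3 and 6569.4 in leaves. Its only probe set carries the suffix for shared probes, so signal of related transcripts cannot be told apart from its own. The leaf was the only group with this gene above background throughout, so the gene passed the detection filter through the group where it was high. That filter favours a difference from whole seeds, so the p-value gives no independent support. Whole seeds were at least 52.9-fold lower (log2 -6.53 ± 0.81 SE, limma adjusted p = 9.6e-06). Within the seed it was above background on 2 of 3 endosperm arrays (432.9 and 195.7, with 155.4 on the other) and on 1 suspensor array (167.5). The endosperm was called higher than embryo proper and suspensor (log2 1.69 ± 0.57 SE, adjusted p = 0.038), by 1.38-fold with the 5 of 6 embryo proper and suspensor arrays below background set to it, but the ranges overlapped and the call ended without embryo proper replicate 1, suspensor replicate 2, endosperm replicate 1 or 3, or leaf replicate 1 or 2 (adjusted p up to 0.19), and under 5 other settings, with an offset of 1 giving 0.091. The coat was called lower than embryo and endosperm (log2 -1.16 ± 0.37 SE, adjusted p = 0.018) with no coat array above background (5.0 to 76.7), so no fold is given; without endothelium replicate 2 the log2 difference was -0.97, under 2-fold.

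CYP71A10 (NCBI gene 606503), a soybean enzyme that breaks down phenylurea herbicides, had 88.2 and 49.1 signal units in whole seeds, both below background, against 1849.2 and 1845.5 in leaves, and was at least 16.4-fold lower in whole seeds (log2 -4.50 ± 0.94 SE, limma adjusted p = 0.0019). In the coat it was above background on both outer integument arrays (198.1 and 158.5) and on 1 of 2 epidermis arrays (316.7, with 57.1 on the other). The outer integument did not differ from the other 4 regions by the call rule (log2 2.26, adjusted p = 0.072). CYP71D10 had 7.7 and 16.1 in whole seeds, against 112.5 and 248.5 in leaves, which did not pass (log2 -2.74, adjusted p = 0.057), and it was called in no comparison.

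CYP93A1, CYP93A2 and CYP81E11 were above background throughout in no group. CYP93A1, annotated with the synonym D6aH, is the soybean dihydroxypterocarpan hydroxylase of glyceollin synthesis, and CYP81E enzymes of other legumes hydroxylate isoflavones. CYP93A1 was above background on scattered arrays, the brightest being 520.6 in endosperm replicate 1. CYP93A2 was above background on 1 leaf array (189.0) and CYP81E11 on 1 inner integument array (258.7). None of these 3 was tested, and their values are given after having been seen. CYP93A1 and CYP93A3 lie on the same chromosome of Glycine_max_v4.0 with 15 genes between them.

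P450 genes named for their function gave a comparison from a list of 36 symbols, of which 8 had a probe set: C4H, IFS1, IFS2, AOS1, AOS2, CYP72A67, CYP93E1 and CYP98A2. No reductase or cytochrome b5 of the list was among them. All 8 were tested, and the list was drawn up with earlier results of these data known. In embryo proper against suspensor 7 of the 8 were called (23.1% of all tested probe sets), 2 higher (CYP72A67 and CYP93E1, of soyasaponin synthesis) and 5 lower (C4H and CYP98A2 of the phenylpropanoid path, IFS1 and IFS2 of isoflavone synthesis, and AOS1 of jasmonate synthesis). C4H and CYP98A2 were also called higher in the endothelium than in the other coat regions. The part of the suspensor's seed coat marker signal in their difference was not tested. The endosperm had 3 lower and 0 higher than embryo proper and suspensor (19.2% of all tested), and the coat 2 higher and 3 lower than embryo and endosperm (21.5%). Among the coat regions the endothelium had 2 higher and 2 lower (6.53% of all tested), the outer integument 2 higher and 1 lower (7.01%), and the hilum 0 higher and 2 lower (9.09%). The epidermis had 0 higher and 1 lower (7.88%), and the inner integument 1 higher and 0 lower (18.8%), that 1 being IFS2 with no coat array above background. Whole seed against leaf gave 2 lower and 0 higher (13.2%). No test was made of these counts against the shares.

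The rule for specific genes was met by 4 of the 8. AOS1 met it in the suspensor (margin 6.07-fold, adjusted p = 0.012), CYP98A2 in the endothelium (5.42-fold, adjusted p = 0.019; 0.21% of all tested were specific to it) and CYP72A67 in the outer integument (9.15-fold, adjusted p = 0.00032; 0.346%). Each of these genes has other probe sets, and no other tested probe set of AOS1, CYP98A2 or CYP72A67 met the rule. IFS2 met it in the suspensor (adjusted p = 2.2e-05) with no array of another captured compartment above background, a lead of at least 15.9-fold. The only probe set of IFS2 carries the suffix for shared probes, as does that of IFS1, so their signals cannot be told apart with certainty. IFS2 shared its compartment with CYP82A3, at 113.7, 130.1 and 105.8 signal units in embryo proper against 4398.9, 3922.9 and 3461.7 in suspensor.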

How the data were processed

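Per the submitters' processing notes the arrays were read with GCOS 1.3; how probes were summarised was not given in the sources used here. The deposited intensity values are linear, 1 per probe set and array, and their mean after trimming 2% at each end was about 500 on every array (500.05 to 500.07), so they were not scaled again. From them log2(signal + 16) was taken, so folds understate changes of dim genes. Of 37593 soybean probe sets, 8677 were annotated to 1 gene; 25686 were above background (the 95th percentile of 23350 pathogen probe sets on the same array) on every array of a group and were tested. The pathogen probe sets may cross-react. One model of 10 groups was fitted to 23 arrays (limma 3.58.1, R 4.3.3, lmFit and eBayes with a trend, 13 residual degrees of freedom), with Benjamini-Hochberg adjustment over all tested probe sets, and was tested on simulated data. The number of arrays limits precision. Values on every array are given for up to 4 called genes per direction and comparison, for specific genes and for subfamilies with 2 tested members, of which there were none; other values were chosen after being seen. The members, gene lists and tests were chosen with earlier results of these data known. Alternatives covered the offset, filter, scaling, weights, variance trend, replicate block, probe set and each array left out. The replicate numbers do not pair the samples.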

Additional observations from a re-analysis of the deposited data

How the results depend on the processing

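The 35 called differences of single genes were recomputed under 36 alternatives at most, giving 1245 values: 1083 kept their call, 162 lost it and 0 reversed, and 15 of the 35 kept it throughout. Leaving out each array in turn gave counts of 5 to 8 for embryo proper against suspensor, 4 to 6 for the endosperm, 4 to 7 for the coat, 0 to 0 for the endothelium, 1 to 4 for the epidermis, 0 to 1 for the hilum, 0 to 3 for the inner integument, 0 to 3 for the outer integument, 4 to 10 for whole seed against leaf, 8 to 12 for variation between compartments and 1 to 2 for specific genes. The hilum count was 0 with an offset of 1, without the filter, with the 99th percentile as background and with the 19 captured arrays alone, and 4 with array weights. The outer integument count was 2 with an offset of 64, 0 without the filter, with the stricter background and with captured arrays alone, 4 with array weights and 2 with the replicate block. The inner integument count was 1 without the filter, with the stricter background, with array weights and with captured arrays alone; the epidermis count was 5 with array weights. Without both arrays of highest background the counts were 8 for the coat, 1 for the endothelium, 5 for the epidermis, 2 for the hilum, 4 for the outer integument and 2 for specific genes. The probe set with the highest group mean per gene, chosen after seeing the data, gave 2 specific genes. The causes were not tested. Same-numbered samples of different groups deviated together in 7 of 93 pairs (r over 0.1; median 0.01); with the replicate block CYP83E8 in the coat (log2 -1.01, adjusted p = 0.072) and CYP93A3 in the hilum (0.053) were lost and no other gene call. Equal array medians moved the median log2 difference of all tested probe sets by 0.23 for embryo proper against suspensor, 0.16 for the hilum and -0.20 for the inner integument, and the share of calls that were higher to 66.3%, 57.7% and 29.3%, against 54.8%, 47.6% and 40.7% as deposited. Signals near background limit CYP74A1, CYP93A3, CYP82C1, CYP94D24 and CYP71D10.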

Other observations

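Among 7 P450 genes whose CYP name appears only as a RefSeq synonym, a rule chosen after the annotation was seen, 2 were above background throughout a group. LOC100793538, with the synonym CYP84A16, belongs to a family whose Arabidopsis member is the ferulate hydroxylase of lignin synthesis. It had 102824.9 and 62208.3 signal units in endothelium and 53365.4 and 72786.2 in inner integument, against 134.9 and 131.1 in hilum and 536.8 and 474.9 in outer integument; the epidermis arrays disagreed (5765.3 and 37.9). The endothelium was 62.4-fold (log2 5.96 ± 1.01 SE, limma adjusted p = 0.00046) and the inner integument 45.7-fold (adjusted p = 0.00036) above the other 4 coat regions, and the hilum was 41.4-fold below them (adjusted p = 0.0011). In embryo proper it had 215.1, 283.0 and 12.6, against 18849.2, 7055.8 and 7880.1 in suspensor, 81.1-fold lower in embryo proper (log2 -6.34 ± 1.04 SE, adjusted p = 9e-05), or 49.2-fold with the 1 embryo proper array below background set to it. The seed coat markers also had a lower sum in embryo proper (1039.1) than in suspensor (7980.0). Their part in the LOC100793538 difference was not tested.

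LOC100799906, with the synonym CYP78A3, had 789.1 and 1011.8 signal units in hilum, against at most 361.4 in the other coat regions, and was 6.90-fold higher in hilum (log2 2.79 ± 0.76 SE, limma adjusted p = 0.022), or 3.91-fold with the 4 of 8 other coat arrays below background set to it. CYP78A enzymes of Arabidopsis act on organ and seed size.

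CYP76O2 was brighter in both whole seed arrays (7527.1 and 10382.3) than in any of the 19 captured arrays (highest 4247.9). Whole seeds and captured compartments also differed in how tissue was prepared and RNA extracted, and the part of this in the difference was not tested.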
